A study of Caenorhabditis elegans with 6 samples.

Results

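The lipid-binding protein genes lbp-1 to lbp-9 of Caenorhabditis elegans were followed in 6 RNA-seq libraries of whole animals. They were found by symbol, and all 9 were present among the 46748 gene identifiers of the count table. Each library was made from N2, the wild-type laboratory strain, as hermaphrodites collected 5 days after the L4 stage, the last larval stage before adulthood. In 3 libraries the labels name T25B9.1 as the perturbation, and in the other 3 they name L4440. Another field of the labels gives RNAi of T25B9.1 for each of the 6, and it was not used for grouping. L4440 is the plasmid without an insert that serves as the control in feeding RNAi, where double-stranded RNA made in the food bacteria silences a worm gene. T25B9.1 is predicted to encode glycine C-acetyltransferase, which takes part in the breakdown of threonine. Both groups share strain, genotype, sex and age, and the sources used here do not give how many animals or cultures a library holds. The p-values below therefore measure the spread between these libraries, which may be technical.

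Lipid-binding proteins of this family fold into a small barrel that holds a fatty acid or a related lipid, and they carry such ligands through the watery parts of the cell. In the worm, LBP-8 is known for taking oleoylethanolamide from the lysosome to the nucleus of intestinal cells, where it activates the nuclear receptors NHR-49 and NHR-80. LBP-1, LBP-2 and LBP-3 carry signals for secretion, and LBP-3 is known as a messenger that leaves the fat-storing tissue and reaches neurons. LBP-5 has been studied for its part in fat storage.

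The libraries labelled T25B9.1 held 26141547 to 34659131 counts and those labelled L4440 held 25480225 to 38621940. The targeted gene was measured first. T25B9.1 had 219, 317 and 430 counts in the libraries labelled T25B9.1, against 90, 92 and 132 in the libraries labelled L4440. Its level was thus higher under its own RNAi label (log2 fold change 1.73, SE 0.245, edgeR adjusted p = 0.00483), so the groups are named here by their labels only. Exchanged labels and reads from the fed RNA cannot be told apart here. Every direction given below, such as lower or fell, sets the T25B9.1 label against the L4440 label, and with exchanged labels each would be the opposite. T25B9.1 replicate 2 stood apart from the other libraries of its label, with a chi-square per degree of freedom of 40.8 and 39.2 against replicates 1 and 3, which differed from each other by 6.18. For the L4440 libraries these values were 21.7 to 39.6.

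Of the 9 lbp genes, lbp-8, lbp-6 and lbp-5 fell under the T25B9.1 label, none rose, and 6 did not pass the test. DESeq2, limma-voom and edgeR's unadjusted p at 0.05 also gave 0 members that rose. Unadjusted p-values under 0.05 were common: the gene mec-6, with an unadjusted edgeR p of 0.0517, ranked 1794 of the 13494 tested genes. Counts of genes at that cut below are to be read against this. In edgeR's quasi-likelihood test at an adjusted p of 0.05, 3.42% of the 13494 tested genes passed in either direction and 2.29% were lower, which is the background for the 3 members that fell (33.3% of the family). All 9 members were measured well enough to be tested. Their median log2 fold change was -0.19, against 0.00798 over all tested genes. A negative log2 fold change was found for 8 of the 9, against 47.4% of tested genes. For lbp-8, lbp-6 and lbp-5 each library labelled T25B9.1 lay below each library labelled L4440, an arrangement found for 9.60% of tested genes. No member had the opposite arrangement, found for 8.29%, and the other 6 overlapped between the labels. In whole animals, fewer cells of a type and less RNA per cell cannot be told apart.

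**Figure D1:**
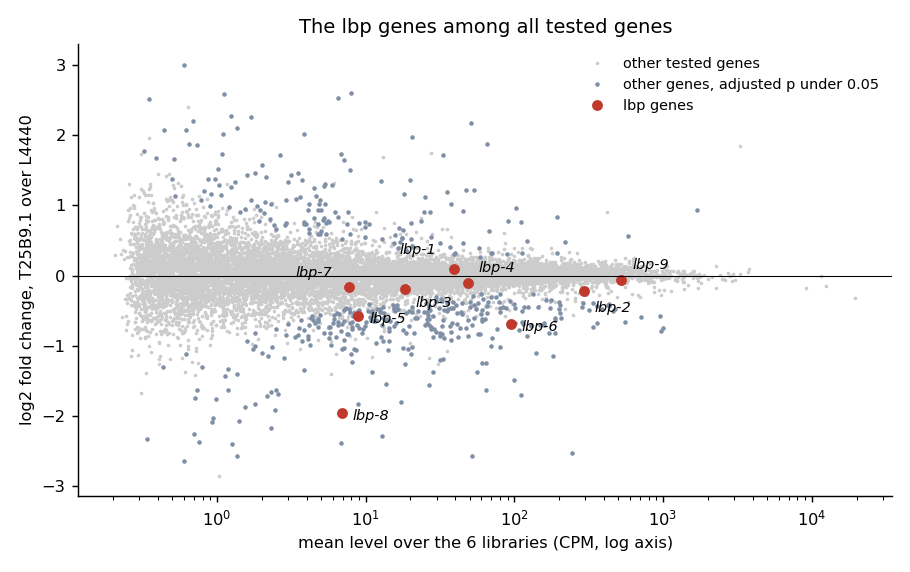
Each point is a tested gene, with its mean level over the 6 libraries in CPM (counts scaled to a common library size) on a log axis and its log2 fold change, T25B9.1 over L4440. The 9 lbp genes are named: lbp-8 lies at -1.96, lbp-6 and lbp-5 lie at -0.69 and -0.58, and the other 6 lie between -0.22 and 0.10.

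The family falls into 5 places in build WBcel235. On the X chromosome lbp-3, lbp-1 and lbp-2 follow one another on the same strand, at 3257372 to 3258155, 3259142 to 3259812 and 3260610 to 3261470, with gaps of 986 and 797 bases. On chromosome I, lbp-6 (6728296 to 6729376) and lbp-5 (6731267 to 6732276) lie on the minus strand 1890 bases apart, with 1 protein-coding gene between them. On chromosome V, lbp-7 (13879552 to 13880213) and lbp-8 (13890773 to 13891364) share a strand and are 10559 bases apart with 3 protein-coding genes between them. Also on chromosome V, lbp-9 (2068449 to 2069142) and lbp-4 (7820578 to 7821477) stand alone. The proteins encoded by lbp-5 to lbp-8 are 135 to 137 residues long by the annotation's coding lengths, and those of lbp-1, lbp-2 and lbp-3 are 159, 161 and 165 residues at their longest. The proteins of lbp-4 and lbp-9 fall between, at 145 residues and up to 152.

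Levels within the family were compared per length, as RPKM, the CPM divided by exon length in kilobases. The most abundant was lbp-9, at 910 ± 41.8 RPKM in libraries labelled T25B9.1 and 948 ± 168 in those labelled L4440 (SD, n = 3 each). The second was lbp-2, at 358 ± 66.4 and 417 ± 25.5 RPKM (SD, n = 3 each) under the same labels, and the third was lbp-6. Together lbp-9 and lbp-2 dominated the family: lbp-9 gave 56.3% and 51.6% of its summed RPKM under T25B9.1 and L4440, and lbp-2 gave 22.1% and 23.0%. The order of the first 7 genes was the same under both labels: lbp-9, lbp-2, lbp-6, lbp-4, lbp-1, lbp-3, lbp-5. Neighbours in this order did not overlap over the libraries of a label, except lbp-4 and lbp-1. At the low end the order changed. In libraries labelled T25B9.1, lbp-8 was the lowest, at 5.34 ± 0.499 RPKM (SD, n = 3), apart from lbp-7 at 14.1 ± 1.33, which overlapped with lbp-5. In libraries labelled L4440, lbp-8 was at 20.9 ± 3.13 RPKM, above lbp-7 at 15.9 ± 2.47 (SD, n = 3 each), and overlapped with lbp-5.

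**Figure D2:**
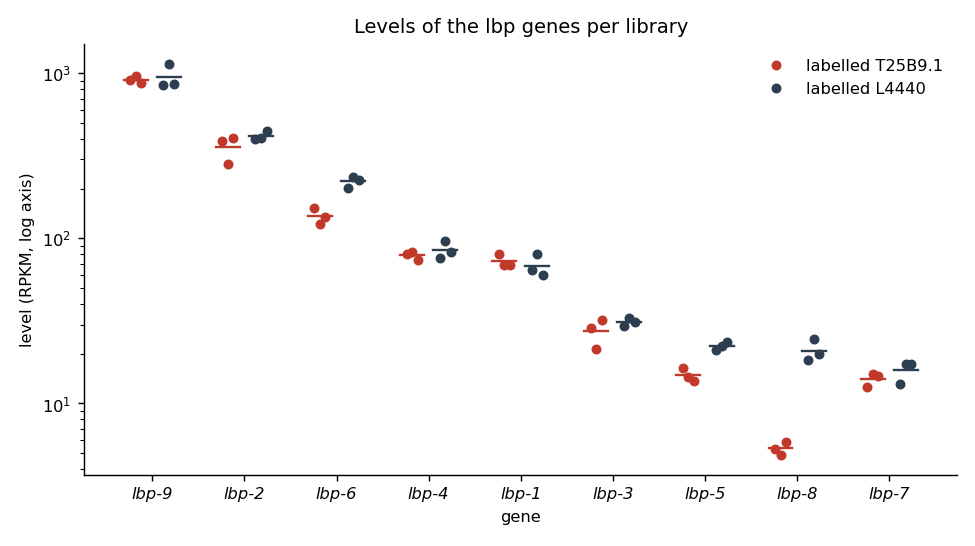
Level of each lbp gene in each of the 6 libraries, in RPKM on a log axis, with libraries labelled T25B9.1 to the left of those labelled L4440; points are libraries and lines are means of 3. The points run from 4.86 RPKM for lbp-8 in a library labelled T25B9.1 to 1141 RPKM for lbp-9 in a library labelled L4440, and the labels are apart for lbp-6, lbp-5 and lbp-8.

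The largest change of the family was in lbp-8 (WBGene00002260), the lysosome-to-nucleus carrier. It had 91, 64 and 110 counts in the libraries labelled T25B9.1, against 337, 322 and 423 in those labelled L4440. Scaled to the normalised library size these were 2.80, 2.57 and 3.09 CPM in the libraries labelled T25B9.1, against 9.70, 12.9 and 10.5 CPM in those labelled L4440. The groups did not overlap, and neither did the counting intervals: the highest upper bound under T25B9.1 was 3.73 CPM and the lowest lower bound under L4440 was 8.69 CPM (exact Poisson, 95%, counting error only). The mean fell to 2.82 ± 0.263 CPM under T25B9.1, against 11.04 ± 1.65 CPM under L4440 (SD, n = 3 each). The fitted level was 25.8% of that in the L4440 libraries (log2 fold change -1.96, SE 0.144, edgeR adjusted p = 0.000145; 95% interval -2.27 to -1.64). By p-value lbp-8 ranked 4 of 13494 genes, and 32 tested genes (0.237%) changed at least as much in either direction. With any 1 library left out, its log2 fold change was -2.06 to -1.85 and it passed each time.

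The other member at this place, lbp-7, lies 10559 bases away with 3 protein-coding genes between, and its protein has the same length as LBP-8. Levels of lbp-7 were 6.52, 7.82 and 7.56 CPM in the libraries labelled T25B9.1, against 6.74, 8.97 and 8.93 CPM in those labelled L4440. These values overlapped, and lbp-7 did not pass (log2 fold change -0.17, SE 0.139, edgeR adjusted p = 0.716). Its 95% interval, -0.48 to 0.14, holds no fall as large as that of lbp-8. Within a library, where depth and scaling cancel, there were 0.429, 0.328 and 0.409 counts of lbp-8 per count of lbp-7 under T25B9.1, against 1.44, 1.44 and 1.18 under L4440. The ratio was on average 3.49-fold lower under T25B9.1, and the labels did not overlap. A two-sided exact permutation test gave p = 0.1, the smallest p that 3 against 3 libraries can give, and 0.2 after adjustment over the 6 ratios computed. Within 20000 bases of the pair, 10 other genes were tested, and against a share of 3.42% over all tested genes 4 passed, in both directions. These were named after their values were seen: the carnitine palmitoyltransferase gene cpt-5 (log2 fold change 0.53) and the cytochrome P450 gene cyp-35C1 (0.33) were higher, and the serine palmitoyltransferase gene sptl-3 (-0.26) and the dehydrogenase gene stdh-1 (-0.46) were lower. These 4 calls were not firm: with 1 library left out, cpt-5 missed the threshold in 4 of 6 fits, cyp-35C1 and sptl-3 in 5 and stdh-1 in 3, at edgeR adjusted p-values of up to 0.206. The median over the 10 genes was -0.22, and by limma-voom 2 of them passed.

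**Figure D3:**
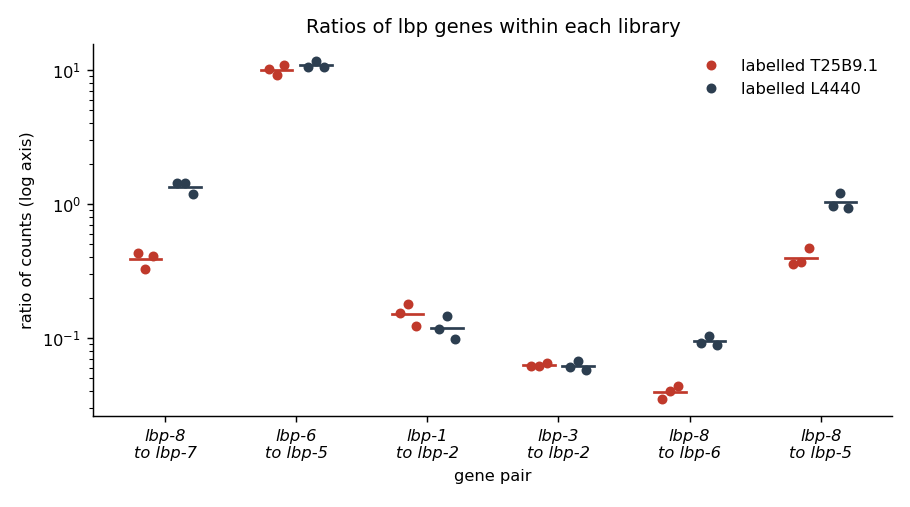
Ratio of the counts of 2 lbp genes within each library, on a log axis, with libraries labelled T25B9.1 to the left of those labelled L4440; points are libraries and lines are geometric means. The ratios of lbp-8 to lbp-7, lbp-6 and lbp-5 were apart between the labels, and those of lbp-6 to lbp-5, lbp-1 to lbp-2 and lbp-3 to lbp-2 overlapped.

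On chromosome I both members were lower. For lbp-6 (WBGene00002258) there were 2623, 1602 and 2538 counts in the libraries labelled T25B9.1, against 3711, 3113 and 4771 in those labelled L4440. As levels these were 80.7, 64.3 and 71.4 CPM under T25B9.1, against 106.8, 124.6 and 118.7 CPM under L4440, with no overlap. The fitted level was 61.8% of that under L4440 (log2 fold change -0.69, SE 0.0889, edgeR adjusted p = 0.00163). It also passed with any 1 library left out, at -0.78 to -0.63. The gene model of lbp-6 shares 35 bases with that of mec-6 on the other strand, and the library kit does not mark strand. The mean count of mec-6 was 51.7 per library, far below that of lbp-6, and its log2 fold change was 0.37 (SE 0.167, edgeR adjusted p = 0.389).

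For lbp-5 (WBGene00002257) there were 256, 174 and 234 counts in the libraries labelled T25B9.1, against 350, 266 and 453 in those labelled L4440. The levels were 7.87, 6.98 and 6.58 CPM under T25B9.1, against 10.1, 10.6 and 11.3 CPM under L4440, again with no overlap. The fitted level was 67.0% of that under L4440 (log2 fold change -0.58, SE 0.111, edgeR adjusted p = 0.0157). This call was the least firm of the 3: without T25B9.1 replicate 3, L4440 replicate 2 or L4440 replicate 3 the edgeR adjusted p was 0.0646, 0.0534 and 0.0792, at log2 fold changes of -0.52, -0.59 and -0.53.

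Relative to each other the chromosome I members kept a similar proportion. There were 10.2, 9.21 and 10.8 counts of lbp-6 per count of lbp-5 in libraries labelled T25B9.1, against 10.6, 11.7 and 10.5 in those labelled L4440. The difference in mean log2 ratio was -0.12 (two-sided exact permutation p = 0.3, adjusted p = 0.36), with overlapping labels, which does not show that the 2 genes changed alike. Of 12 other tested genes within 20000 bases of them none passed by edgeR, DESeq2 or limma-voom, 2 had an unadjusted edgeR p under 0.05, and the median log2 fold change was 0.00466. The estimated fall of lbp-8 was larger than that of either gene. Per count of lbp-6 there were 0.0347, 0.0400 and 0.0433 counts of lbp-8 under T25B9.1, against 0.0908, 0.103 and 0.0887 under L4440, a difference in mean log2 ratio of -1.26. For lbp-8 to lbp-5 this difference was -1.38. The labels were apart for both ratios, which were added after the values were seen, and for each the exact permutation p was 0.1, the smallest possible (adjusted p = 0.2).

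**Figure D4:**
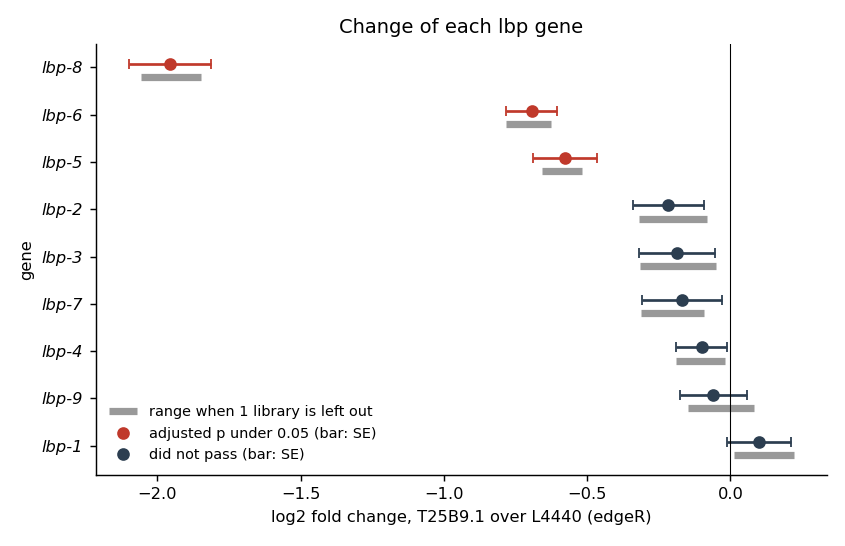
Log2 fold change of each lbp gene, T25B9.1 over L4440, with its standard error (thin bar) and the range of estimates when 1 library is left out (thick grey bar). The grey bars of lbp-8, lbp-6 and lbp-5 end at -0.52 or lower, while that of lbp-9 runs from -0.15 to 0.08.

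The 3 genes with secretion signals, side by side on X, did not pass. The levels of lbp-2 were 293, 215 and 309 CPM in libraries labelled T25B9.1, against 303, 307 and 338 CPM in those labelled L4440 (log2 fold change -0.22, SE 0.125, edgeR adjusted p = 0.543). Those of lbp-3, the fat-to-neuron messenger, were 17.96, 13.3 and 19.9 CPM under T25B9.1, against 18.4, 20.6 and 19.5 CPM under L4440 (-0.19, SE 0.133, edgeR adjusted p = 0.655). In both genes T25B9.1 replicate 2, the library that stood apart from its group, was the lowest of the 6, and without it their log2 fold changes were -0.08 and -0.05. The ratio of lbp-3 to lbp-2 stayed within a narrow band, at 0.0614, 0.0619 and 0.0644 under T25B9.1 and 0.0606, 0.0672 and 0.0576 under L4440. Its mean log2 difference was 0.02 (two-sided exact permutation p = 0.8, adjusted p = 0.8) and changed sign without T25B9.1 replicate 3 (-0.0018) or L4440 replicate 3 (-0.03). The 95% intervals of the changes, -0.50 to 0.06 for lbp-2 and -0.48 to 0.11 for lbp-3, still allow a fall of modest size.

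The third gene of that cluster, lbp-1, was the only member with a positive log2 fold change. It had 44.7, 38.4 and 38.1 CPM in libraries labelled T25B9.1, against 35.5, 44.7 and 33.2 CPM in those labelled L4440, and did not pass (0.10, SE 0.113, edgeR adjusted p = 0.816; 95% interval -0.15 to 0.35). Per count of lbp-2 there were 0.153, 0.179 and 0.123 counts of lbp-1 under T25B9.1, against 0.117, 0.146 and 0.0982 under L4440. These ratios overlapped (difference in mean log2 ratio 0.34, two-sided exact permutation p = 0.2, adjusted p = 0.3). Of 7 other tested genes within 20000 bases of the cluster, none passed by edgeR, DESeq2 or limma-voom, 1 had an unadjusted edgeR p under 0.05, and their log2 fold changes ran from -0.38 to 0.45.

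Of the solitary genes, lbp-4 had 47.6, 48.98 and 43.6 CPM in libraries labelled T25B9.1, against 45.0, 56.7 and 48.7 CPM in those labelled L4440. It did not pass (log2 fold change -0.10, SE 0.0896, edgeR adjusted p = 0.744; 95% interval -0.30 to 0.10). The most abundant member, lbp-9, had 509, 539 and 492 CPM under T25B9.1, against 478, 644 and 482 CPM under L4440 (-0.06, SE 0.117, edgeR adjusted p = 0.907; 95% interval -0.32 to 0.20). L4440 replicate 2 was the highest library for both genes, and without it the sign of lbp-9 turned (0.08, edgeR adjusted p = 0.758). The end of the lbp-9 model overlaps Y40B10A.9 on the other strand by 5 bases. Near lbp-9, 6 genes were tested. Of these comt-4 (1.31) was higher and comt-3 (-0.63) lower, against 1.13% and 2.29% of all tested genes. Both were named after their values were seen. Near lbp-4, 10 were tested and none passed by edgeR, DESeq2 or limma-voom, while 3 had an unadjusted edgeR p under 0.05. The change nearest the threshold among the 6 genes that did not pass was that of lbp-2, at an unadjusted p of 0.114, and the smallest fall among those that did was that of lbp-5, with 0.000324.

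The summed level of the family was the lower one under T25B9.1 by a narrow margin, without overlap, and was not tested. It was 1664, 1567 and 1623 RPKM in libraries labelled T25B9.1, against 1672, 2055 and 1760 RPKM in those labelled L4440, with a mean of 1618 ± 48.8 and 1829 ± 201 (SD, n = 3 each). Within this sum the share of lbp-8 was 0.318%, 0.310% and 0.361% under T25B9.1, against 1.10%, 1.19% and 1.13% under L4440. The share of lbp-6 was 9.20%, 7.78% and 8.35% under T25B9.1, against 12.1%, 11.5% and 12.8% under L4440. The members that fell thus included 1 abundant gene of the family, lbp-6, and 2 of its 3 scarcest, lbp-5 and lbp-8.

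Genes around these carriers were taken from 5 lists: other lipid carriers, lipases that release fatty acids, acyl-CoA synthetases that activate them, nuclear receptors of fat metabolism, and genes reported to depend on NHR-49. The lists were put together with earlier results of these data known, so their counts are a description. In the last of them, 6 of 9 genes were lower and 1 higher, against 2.29% and 1.13% of all tested genes, with a median log2 fold change of -0.71. The delta-9 desaturase genes fat-5 (-0.71, SE 0.0796) and fat-7 (-1.01, SE 0.107) were lower, while fat-6, of the same kind, had -0.27 (SE 0.081, edgeR adjusted p = 0.127) and did not pass, though it did by DESeq2 (adjusted p = 0.0337) and by edgeR with no filter on low counts (0.0387). The mitochondrial acyl-CoA synthetase gene acs-2 (-2.28), the acyl-CoA dehydrogenase gene acdh-1 (-2.52), the glyoxylate shunt gene icl-1 (-0.82) and the hydroxyacyl-CoA dehydrogenase gene hacd-1 (-0.37) also fell, and cpt-5, the gene near lbp-7, rose (0.53, SE 0.111, edgeR adjusted p = 0.0267). The flavin monooxygenase gene fmo-2 had 0.94 (SE 0.422, edgeR adjusted p = 0.398), and of the 12 alternatives that tested it passed only without T25B9.1 replicate 3 (0.00821). The count of passing genes in this list was 4 without T25B9.1 replicate 2 and 3 without L4440 replicate 2, against 7 with all libraries. Singly, acs-2 did not pass without T25B9.1 replicate 2 or L4440 replicate 2 (edgeR adjusted p = 0.102 and 0.0511), and acdh-1 not without L4440 replicate 1, 2 or 3 (0.0750, 0.0815 and 0.0794). For hacd-1 it was lost without T25B9.1 replicate 2 or 3 (edgeR adjusted p = 0.0689 and 0.108) or L4440 replicate 2 or 3 (0.0811 and 0.0950). The rise of cpt-5 was lost without T25B9.1 replicate 2 or 3 (edgeR adjusted p = 0.0539 and 0.102) or L4440 replicate 1 or 2 (0.0729 and 0.121). Whether the changes in this list are linked to the fall of lbp-8 was not tested.

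The receptors themselves did not pass. The level of nhr-49, which encodes the receptor that LBP-8 signals to, was 150, 158 and 140 CPM in libraries labelled T25B9.1, against 148, 137 and 141 CPM in those labelled L4440 (log2 fold change 0.07, SE 0.0672, edgeR adjusted p = 0.773). That of its partner nhr-80 was 5.60, 5.74 and 5.54 CPM under T25B9.1, against 6.74, 6.00 and 6.42 CPM under L4440, without overlap (-0.19, SE 0.111, edgeR adjusted p = 0.558). Of all tested genes 9.60% had this arrangement. None of the 5 genes of this list (nhr-49, nhr-80, nhr-66, nhr-13 and the coactivator gene mdt-15) passed by edgeR, DESeq2, limma-voom or edgeR's unadjusted p at 0.05, and their log2 fold changes ran from -0.19 to 0.15. The neuropeptide gene nlp-11, known as a neuronal target of the LBP-3 signal, had 0.14 (SE 0.157, edgeR adjusted p = 0.817).

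Among the lipases, 8 of 10 were tested, 1 was higher and 1 lower, against 1.13% and 2.29% of all tested genes. The median of the lipases was 0.05. The lysosomal lipase gene lipl-4, known to act ahead of LBP-8 and LBP-3, was scarce, with 35, 23 and 25 counts under T25B9.1, against 28, 26 and 49 under L4440 (-0.20, SE 0.246, edgeR adjusted p = 0.836). Its relative lipl-1 rose to 28.9, 26.8 and 30.3 CPM under T25B9.1, against 10.3, 9.81 and 13.2 CPM under L4440 (1.36, SE 0.117, edgeR adjusted p = 0.000192). The abundant lipl-5 fell (-0.41, SE 0.0859), a call lost without T25B9.1 replicate 1, T25B9.1 replicate 3 or L4440 replicate 3 (edgeR adjusted p = 0.0965, 0.130 and 0.0983). Against 2.29% of all tested genes, 2 of 18 tested acyl-CoA synthetase genes were lower, acs-1 (-0.42, SE 0.0656) and acs-2, which is also in the NHR-49 list. None was higher by edgeR, DESeq2 or limma-voom, 1 was by edgeR's unadjusted p at 0.05, and the median was -0.03 (0.0074 with no filter on low counts).

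Of 16 other lipid carriers, 2 were lower and 1 higher, against 2.29% and 1.13% of all tested genes, and the list median was -0.13. All 3 belong to the fatty acid and retinol binding proteins, a family of carriers found in nematodes. The abundant far-3 fell to 270, 245 and 316 CPM under T25B9.1, against 382, 432 and 510 CPM under L4440 (-0.67, SE 0.122, edgeR adjusted p = 0.0134). The scarce far-4 had 13, 6 and 15 counts under T25B9.1, against 48, 21 and 45 under L4440 (-1.63, SE 0.290, edgeR adjusted p = 0.0104). In the other direction far-7 had 82, 64 and 83 counts under T25B9.1, against 31, 34 and 59 under L4440 (0.99, SE 0.198, edgeR adjusted p = 0.0193). Without T25B9.1 replicate 1 or L4440 replicate 2, far-3 (edgeR adjusted p = 0.0641 and 0.0889) and far-7 (0.0800 and 0.0594) did not pass, and far-4 was the only gene of the list that did. None of the 7 genes of acyl-CoA binding proteins (acbp-1, acbp-3 to acbp-7 and maa-1) passed by edgeR, DESeq2 or limma-voom, and 1 had an unadjusted edgeR p under 0.05.

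**Figure D5:**
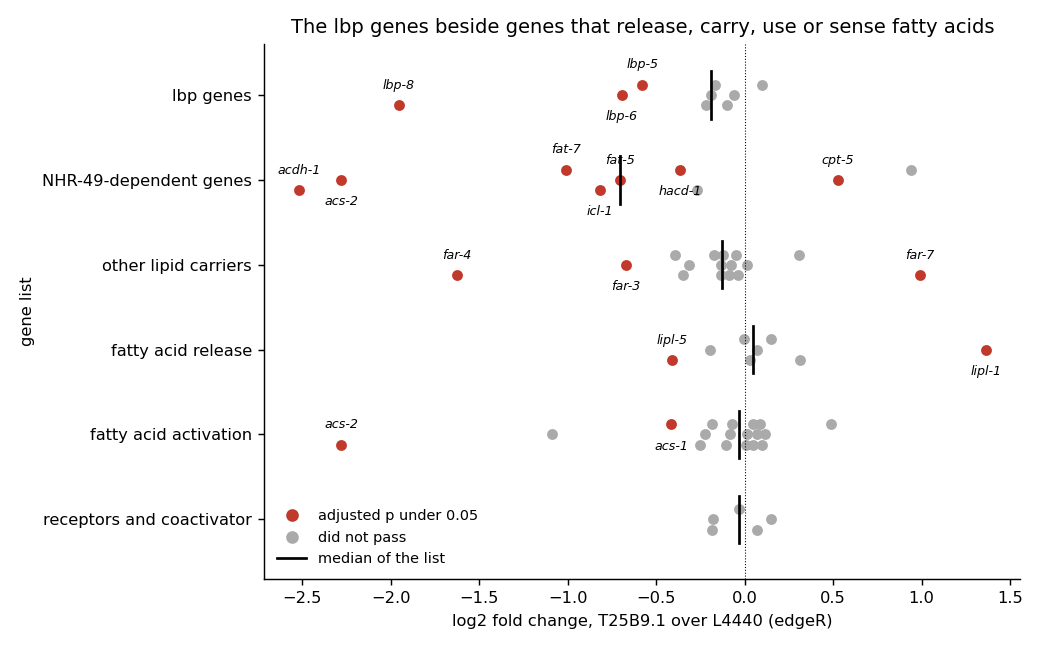
Log2 fold change, T25B9.1 over L4440 by edgeR, of each tested gene of the lbp family and of 5 lists of genes that release, carry, use or sense fatty acids; black bars are list medians and named red points passed an adjusted p of 0.05. The lists of lbp genes and of genes reported to need NHR-49 have medians of -0.19 and -0.71, and the receptor list has no passing gene.

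Markers of tissues were measured beside these changes, since lbp-8 is known from the intestine. Of 9 tested intestinal markers 2, ifb-2 and cpr-1, were higher by edgeR and none was lower, against 1.13% and 2.29% of all tested genes. The median log2 fold change of these markers was 0.02. With 1 library left out this median ran from -0.09 to 0.06, with 4 of 6 values negative, and cpr-1 missed the threshold in 5 of 6 fits (edgeR adjusted p up to 0.104). At an unadjusted edgeR p of 0.05, 2 were lower, as was 1 by DESeq2 and 0 by limma-voom. Their summed level was 1350 to 1708 CPM in libraries labelled T25B9.1, against 1296 to 1387 CPM in those labelled L4440, and no marker of the list was at 0. The means of this sum were 1560 and 1347 CPM. Of these cpr-1 alone gave 693 CPM under T25B9.1 and 468 CPM under L4440, so the higher sum rests on that gene. None passed by edgeR, DESeq2 or limma-voom among 6 hypodermal, 8 body wall muscle, 10 neuronal, 10 germline and 7 embryonic markers, whose medians lay between -0.11 and 0.09, and 2 had an unadjusted edgeR p under 0.05. The hypodermal median, -0.11, ran from -0.41 to 0.13 with 1 library left out. Of 6 pharyngeal muscle markers 1, marg-1, was higher by edgeR, against 1.13% of all tested genes. An unadjusted edgeR p under 0.05 was found for 5 of the 6, with a median of 0.76 over the list. Their summed level was 54.7 to 68.6 CPM under T25B9.1, against 39.3 to 54.04 CPM under L4440. With 1 library left out, marg-1 missed the threshold in 5 of 6 fits (edgeR adjusted p up to 0.197). Of 7 sperm markers only 1 had enough counts to be tested, with a log2 fold change of 0.52 (0.17 to 0.73 with 1 library left out), and it did not pass. The sperm markers summed to 0.923 to 1.66 CPM under T25B9.1, against 0.622 to 1.04 CPM under L4440. What part tissue makeup has in the changes of the lbp genes was not tested.

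The genes whose levels over the 6 libraries ran most like those of each falling member were found by Pearson's r of log2 CPM among 10295 other tested genes that averaged 50 counts or more. The libraries fall into the label groups, so r also holds the difference between labels and is a description. For lbp-8 they were the aspartyl protease gene asp-13 (r = 0.996), the glutathione S-transferase gene gst-4 (0.995) and F13H8.3 (0.995), with log2 fold changes of -0.86, -1.54 and -0.67. For lbp-6 they were F18E3.13 (0.998), C23H5.8 (0.997) and F48D6.4 (0.995), with -1.83, -1.10 and -0.66. For lbp-5 they were papl-1 (0.998), oac-58 (0.998) and the folate transporter gene folt-1 (0.995), with -0.65, -0.27 and -0.62, of which oac-58 did not pass (edgeR adjusted p = 0.479). With 1 library left out, folt-1 missed the threshold in 4 of 6 fits and C23H5.8 in 1 (edgeR adjusted p up to 0.148 and 0.0532). Over all 13 alternatives C23H5.8 missed it in 3, and its adjusted p was highest with no filter on low counts (edgeR adjusted p = 0.099).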

How the data were processed

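The authors deposited unnormalised read counts for each gene. The submitters' processing notes name featureCounts 1.4.6-p4, the aligner STAR 2.4.1d, bcl2fastq 1.8.4 and genome build WBcel235. The strand setting and the treatment of reads of more than 1 gene are not given in the sources used here, and the kit named in the labels' protocols does not mark strand. A second deposited table, in RPKM from the same libraries, was not used. Libraries were grouped by the perturbation label. In another field the labels give RNAi of T25B9.1 for each of the 6, and that field was not used. Replicates were numbered in accession order and not paired.

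Genes were named for 43693 of 46748 identifiers, and positions and exon lengths come from Ensembl release 115 of the same build. Genes were tested with the quasi-likelihood F-test of edgeR (4.0.16, R 4.3.3, robust, TMM factors, filterByExpr with a minimum count of 10, no covariate) over all 13494 genes that passed the filter (28.9%), adjusted after Benjamini and Hochberg, and 0.05 was the threshold. The SE is the log2 fold change over the square root of F, and 95% intervals use the test's degrees of freedom. CPM are counts over the TMM-scaled library size, and RPKM are CPM per kilobase of exon. On simulated counts with known changes, the share of false calls was above the threshold and many changes as small as that of lbp-5 were missed. Ratios within a library were compared with exact permutation tests in scipy 1.17.1.

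The members and gene lists were chosen with earlier results of these data known. Named genes are all members, the target, list genes past the threshold (at most 6 a list), lipl-4, nhr-49, nhr-80 and nlp-11, and the 3 genes most like each falling member. Outside this rule, and after values were seen, the text names genes near members, cpt-5, fat-6, fmo-2, the other receptor and acyl-CoA binding genes, and markers that passed. The window of 20000 bases around members was chosen after the count table was seen. acs-8 and the marker opt-2 were not matched by name. The alternatives replaced the TMM factors by those of RLE or the upper quartile, or used no filter, DESeq2 1.42.0, voom from limma 3.58.1, a filter at a mean of 50 counts, a block of consecutive library numbers in the titles, and leaving out each library.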

Additional observations from a re-analysis of the deposited data

How the results depend on the processing

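Over 13 alternatives to the test, lbp-8 and lbp-6 stayed lower and past the threshold, with log2 fold changes of -2.06 to -1.85 and -0.78 to -0.63, T25B9.1 over L4440. The fall of lbp-5 ran from -0.66 to -0.52 when 1 library was left out and missed the threshold in 3 of those 6 fits, as given above. The other members did not pass under any alternative, and lbp-9, at -0.15 to 0.083 with 1 library left out, changed sign without L4440 replicate 2. The number of lbp genes passing was 3, or 2 in those 3 fits. Over all genes 461 passed, 719 with no filter on low counts and 272 to 517 with 1 library left out (272 when L4440 replicate 3 was left out, 296 for L4440 replicate 2 and 307 for T25B9.1 replicate 1). The ratio of lbp-3 to lbp-2 gave mean log2 differences of -0.0298 to 0.0808 with 1 library left out, negative without T25B9.1 replicate 3 (-0.0018) and L4440 replicate 3. The labels pair no libraries. The deviations of libraries with consecutive title numbers correlated at -0.0514, 0.124 and 0.222. Those of the other pairs of libraries across the labels correlated at -0.213 to 0.0613. Whether consecutive libraries share more than a number was not tested, and the main test used no block. With consecutive numbers as a replicate block, 597 genes and the same 3 lbp genes passed. With no filter on low counts acs-2 and acdh-1 lost their calls (edgeR adjusted p = 0.0986 and 0.0575). The cause of these shifts was not tested. At these depths single counts of lbp-5, lbp-7 and lbp-8 run from 64 to 453, so their relative counting error is larger than that of the abundant members.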
